A study of Caenorhabditis elegans with 2 samples.

Results

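The genes described here are the superoxide dismutases (sod-1 to sod-5) and the catalases (ctl-1 to ctl-3) of the nematode Caenorhabditis elegans, chosen by name. A gene counted as measured if a probe set of the array named it and no other gene, which held for 6 of the 8, among 17118 genes measured in all. The measured genes are all 5 superoxide dismutases and the catalase ctl-2. The catalases ctl-1 and ctl-3 have no value here, because the probe set that carries their symbols carries both.

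RNA came from whole worms of the wild-type N2 strain, synchronized and kept in liquid S-medium in the dark. One array held worms exposed to anatase, a crystal form of titanium dioxide, as nanoparticles at 500 µg/ml, and the other held worms that received none (both are numbered replicate 3 in the labels, and no further replicate was analysed here). How old the worms were and how long they were exposed is not stated in the labels. With 1 array per group there was no replicate error and no test, so each difference below describes these 2 arrays, whose number limits the precision.

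Superoxide, a by-product of respiration and of oxidase enzymes, is turned by superoxide dismutases into hydrogen peroxide and oxygen. Catalases break the peroxide down into water and oxygen. In the worm, SOD-2 and SOD-3 are manganese enzymes of the mitochondrion, SOD-1 and SOD-5 are copper and zinc enzymes of the cytosol, and SOD-4 is a copper and zinc enzyme that acts outside the cell or at its membrane. CTL-2 is the peroxisomal catalase and CTL-1 the cytosolic one. Several of these genes, sod-3 above all, are known targets of DAF-16, the transcription factor that insulin signalling holds out of the nucleus.

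The measured members gave similar signal on both arrays. None of the 6 differed by 2-fold or even by 1.5-fold. Over the 13606 genes bright enough to be compared, 1.66% were higher by 2-fold or more in exposed worms and 3.07% were lower by as much, and 4.69% and 9.58% passed 1.5-fold in the same directions. The excess of lower genes depended on the scaling: 226 genes were past 2-fold higher and 418 lower as reported, against 289 and 304 after loess correction and 291 and 309 after quantile normalization. Passing 2-fold was rarer among brighter genes. With the brightness filter at the array median, which 5 of the 6 members passed, 25 of 8811 genes were higher and 54 lower. With so few members, a count of 0 is near what either background gives. The differences, on the log2(intensity + 16) scale and always exposed minus control, ran from −0.31 for sod-1 to 0.26 for ctl-2. Of the 6 members, 3 read higher and 3 lower, with a median difference of 0.02. Over all genes compared the median was −0.02 and 46.8% read higher.

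**Figure D1:**
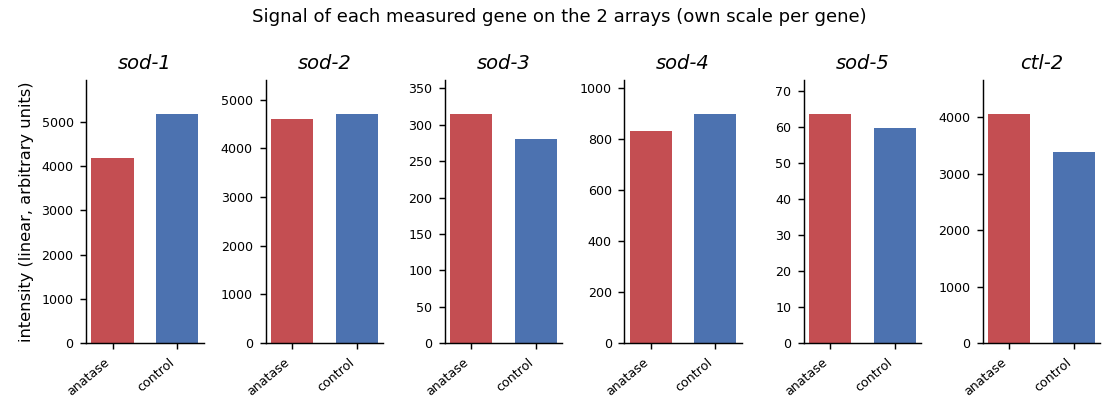
Deposited intensity (linear scale, arbitrary units) of each measured gene on the array of anatase-exposed worms (left bar) and of control worms (right bar), 1 array each and no error bar; each panel has its own axis from 0, and levels cannot be set against each other between panels. The bars of a gene differ little, most for sod-1 (4178.7 exposed, 5173.1 control) and ctl-2 (4058.3 exposed, 3392.2 control).

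Of the mitochondrial enzymes, sod-2, which encodes the main manganese superoxide dismutase, had an intensity of 4609.0 in exposed worms and 4706.6 in control worms. Its log2 difference was −0.03, the smallest in size of the 6, and 83.8% of the 681 genes of similar brightness lay at least as far from 0. Similar brightness here means the same one of 20 equal groups of genes by mean log2 value. The sign of sod-2 turned, to 0.03, under median centring of the arrays, so no direction is given for it.

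The inducible mitochondrial gene sod-3, much used as a reporter of DAF-16 activity, had an intensity of 314.7 in exposed worms and 280.4 in control worms. The exposed value was 1.12 times the control value, a log2 difference of 0.16. Of the 681 genes of similar brightness, 55.4% lay at least as far from 0, and their differences had an SD of 0.30. The difference of sod-3 thus lay well within the range of genes with comparable signal. Its difference stayed between 0.14 and 0.21 under the scalings and pseudocounts tried. The other settings could not move a gene read by 1 probe set.

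Of the cytosolic enzymes, sod-1, the main copper and zinc superoxide dismutase of the worm, had an intensity of 4178.7 in exposed worms and 5173.1 in control worms. The exposed value was 0.808 times the control value, and the log2 difference of −0.31 was the largest in size among the members. Bright genes differed little between the arrays: the 681 genes of similar brightness had an SD of 0.21, with the 5th and 95th percentiles at −0.31 and 0.36. Within that group sod-1 lay near the lower edge, with 5.43% of the genes reading lower still. As many as 80 of the 681 genes lay at least as far from 0 in either direction. sod-1 read lower under every scaling tried, between −0.33 and −0.25, but it was read by 1 probe set of a type (suffix s) that can pick up related transcripts, so no second probe set checked it.

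The other cytosolic gene, sod-5, a minor form known to be raised in the dauer larva, was read by a dim probe set. Its intensity was 63.7 in exposed worms and 59.8 in control worms, in both cases below the array's median of 117.8 in exposed worms and 123.1 in control worms. The log2 difference was 0.07, and 88.7% of the 680 genes of similar brightness lay at least as far from 0. The genes of that brightness group tended to read lower in exposed worms, with a median of −0.17. After a loess correction or quantile normalization, which remove this shift, sod-5 was at 0.21 or 0.22. The table holds no detection calls, so whether the sod-5 signal lay above background is unknown.

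The extracellular and membrane-bound enzyme gene sod-4 had an intensity of 830.3 in exposed worms and 896.5 in control worms. Its log2 difference was −0.11, and 59.9% of the 681 genes of similar brightness lay at least as far from 0. RefSeq lists 2 transcripts for sod-4 and 2 for sod-1. Each gene had 1 probe set, so a shift between its transcripts could not be read here.

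Among the catalases, only ctl-2 was measured alone. The gene for the peroxisomal enzyme had an intensity of 4058.3 in exposed worms and 3392.2 in control worms, a log2 difference of 0.26. It stood in the same brightness group as sod-1 and sod-2, where 91.5% of the genes read lower than ctl-2 and 108 of 681 lay at least as far from 0 in either direction. Under every scaling ctl-2 read higher in exposed worms, between 0.25 and 0.31. Its probe set is also of the type that can pick up related transcripts. The 3 catalase genes lie side by side on chromosome II in the order ctl-2, ctl-1, ctl-3, with 0 other protein-coding genes between them in the RefSeq table, and how far their transcripts share this probe set was not tested.

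**Figure D2:**
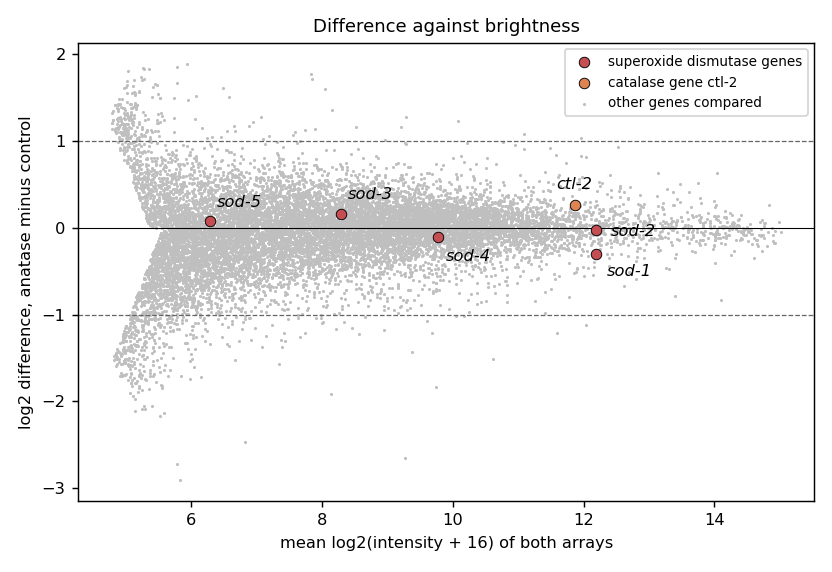
Log2 difference (exposed minus control) against mean log2(intensity + 16) of both arrays for the 13606 genes compared (grey) and the 6 measured members (large points), with dashed lines at 2-fold. The members lie inside the cloud of genes of like brightness, and the widest scatter is found among dim genes. sod-1, at −0.31, lies near the 5th percentile of its brightness group. ctl-2, at 0.26, lies below the 95th percentile of that group, which is 0.36.

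With no replicates, technical spread could be taken only from genes that had exactly 2 probe sets, by taking the SD of the gap between their readings over the square root of 2. It depended on brightness, at 0.51 log2 units in the dimmest and 0.18 in the brightest of 4 equal classes of the genes compared. The differences of sod-1 and ctl-2, both in the brightest class, were larger than that SD of 0.18, while those of sod-2 and sod-4 in the same class were smaller. sod-3, in the next brightest class with an SD of 0.24, and sod-5, in the dimmest, also differed by less than the SD of their class. This spread covers disagreement between probe sets on these arrays and not the variation between worm cultures. All 6 members lay between the 5th and 95th percentiles of their own brightness group. The distance between the lowest member, sod-1, and the highest, ctl-2, was 0.56 log2 units.

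**Figure D3:**
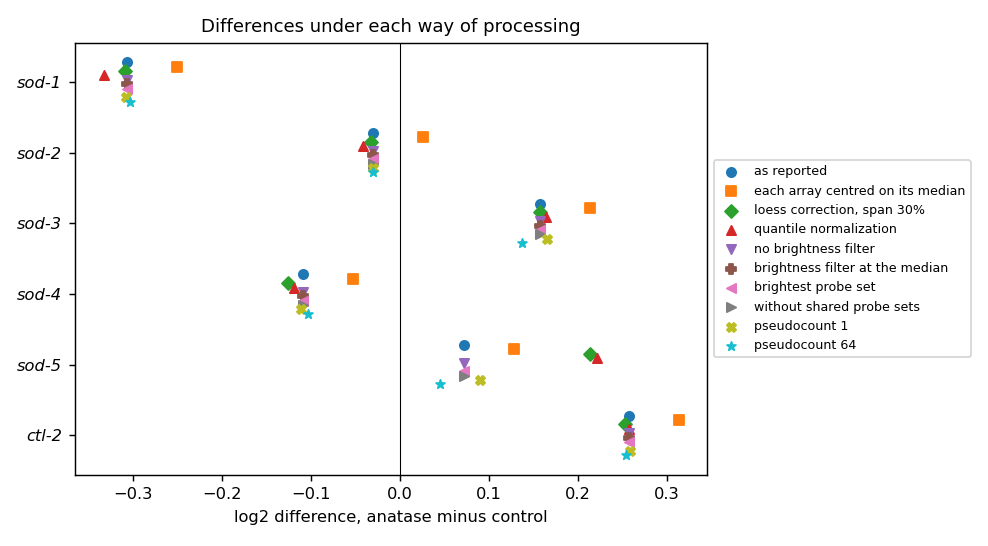
Log2 difference (exposed minus control) of each measured member as reported and under 9 other ways of processing (symbols); a symbol is missing where that setting leaves the gene without a value. Only sod-2 crosses 0, under median centring of the arrays, and sod-5 moves most, between 0.04 and 0.22.

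Genes that act beside the dismutases and catalases were described by lists, which were chosen with earlier results of these data known. The peroxide enzymes (peroxiredoxins, glutathione peroxidases, thioredoxins, glutaredoxins, reductases and glutathione synthesis enzymes) had 22 genes compared, 11 higher and 11 lower in exposed worms, with a median of 0.03. On the log2(intensity + 16) scale none passed 2-fold in either direction. The member farthest from 0 was trx-3, a thioredoxin of the intestine, at 392.0 in exposed worms and 787.9 in control worms, a log2 difference of −0.98. It stood at the 2-fold line: with a pseudocount of 1 in place of 16 it was at −1.01, past 2-fold. The glutathione peroxidase gene gpx-3 followed at 0.59, with 202.6 in exposed worms and 129.7 in control worms.

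The peroxisome, where CTL-2 acts, was covered by 17 genes for its assembly and its fatty acid oxidation. Of these, 4 read higher and 13 lower in exposed worms, with a median of −0.17, while 46.8% of all genes compared read higher. That share depended on the scaling, at 54.3% under median centring, 50.7% after loess correction and 51.1% after quantile normalization. The median was below 0 in each setting run for the lists, at most −0.11, and no gene passed 2-fold. acox-3, of the acyl-CoA oxidase family that makes peroxide, was at −0.49, with 1435.8 in exposed worms and 2019.2 in control worms. The peroxisome assembly gene prx-2 was at 0.67, with 291.7 in exposed worms and 177.7 in control worms. ctl-2, at 0.26, thus stood on the other side of 0 from most of the peroxisome genes, a comparison that was not tested.

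The list of superoxide sources and electron carriers holds respiratory chain subunits, dual oxidases, a cytochrome c gene and the ubiquinone synthesis gene clk-1. It had 13 genes compared, 10 higher and 3 lower, with a median of 0.04 and 0 past 2-fold. Over all genes compared 46.8% read higher, or 54.3% under median centring. isp-1, the Rieske iron-sulfur protein of complex III, was at 0.37, with mean intensities of 9807.4 in exposed worms and 8178.7 in control worms. Its 2 probe sets read 0.17 and 0.57, the brighter one being the lower. The dual oxidase gene duox-2 was dim and at 0.22, between 0.12 and 0.40 over the settings, with 44.1 in exposed worms and 35.6 in control worms. Copper handling genes, which serve copper enzymes, had 5 genes compared, 3 higher and 2 lower, with a median of 0.17 that was 0.06 without the probe sets that can cross-read related transcripts. Probe sets of that kind alone read isp-1, acox-3 and cua-1. Its farthest members were the cytochrome oxidase assembly gene cox-11 at 0.52 and the copper-transporting ATPase gene cua-1 at 0.19.

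Known regulators of oxidative stress genes had 19 genes compared, 11 higher and 8 lower, with a median of 0.05 that turned to −0.06 with the brightest probe set of each gene. skn-1, which encodes an Nrf-family transcription factor, was at 0.51 as the mean of 3 probe sets at 0.14, 0.97 and 0.43. The reading of 0.97 came from the dimmest of them, at 69.8 in exposed worms and 27.8 in control worms, and the brightest read 0.43. The kinase gene jnk-1 was at −0.41, with probe sets at −0.61 and −0.22. daf-16 itself, named after its values were seen, was at −0.37, but its 4 probe sets read −0.72, −0.68, −0.09 and 0.00. The reading of −0.72 came from the dimmest of these 4, at 29.5 in exposed worms and 58.7 in control worms. The brightest, at 290.6 in exposed worms and 289.9 in control worms, read 0.00, so daf-16 has no settled direction. Of 14 other DAF-16 targets, 8 read higher and 6 lower, with a median of 0.12. The metallothionein gene mtl-1 at −0.92 and the small heat shock gene hsp-12.6 at 0.61 lay at opposite ends, and sod-3 at 0.16 lay between them. No gene of either list passed 2-fold.

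**Figure D4:**
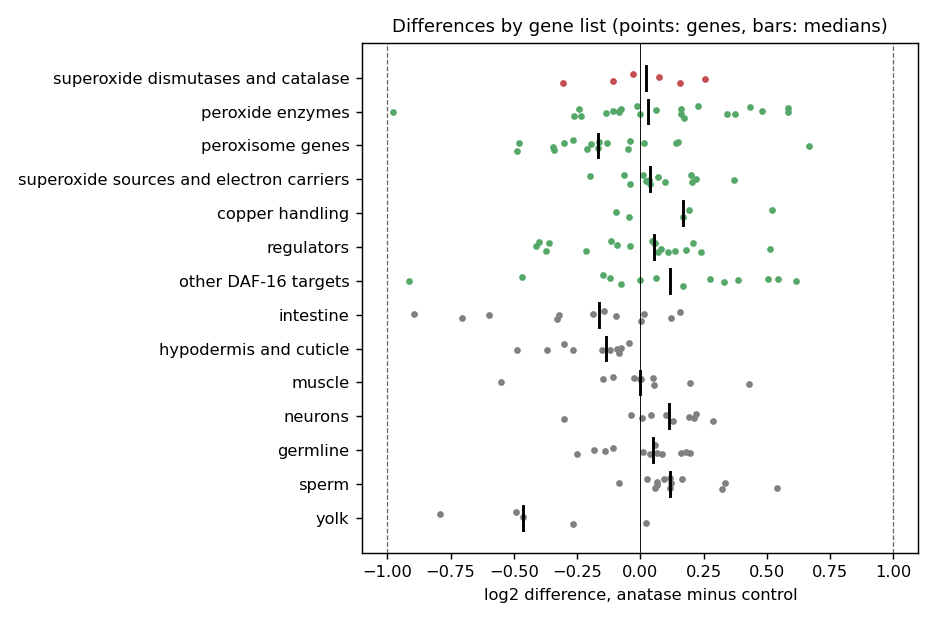
Log2 difference (exposed minus control) of each gene compared, by list, with the median as a black bar and 2-fold as dashed lines; green marks lists of related genes and grey marks tissue markers. The dismutases and ctl-2 (red) span −0.31 to 0.26 around a median of 0.02, and the gene nearest to 2-fold is trx-3 at −0.98, which passed it with a pseudocount of 1.

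In whole worms, fewer cells of a tissue and less RNA per cell cannot be told apart. Every measured marker of the 7 tissue lists lay at or above the 25th percentile of probe sets on both arrays, except the neuron gene rgef-1, and none was listed at 0. The counts below stand beside 46.8% of all genes compared that read higher in exposed worms, or 54.3% under median centring. The 12 intestine markers summed to 54025 in exposed worms and 59663 in control worms, with 4 higher and 8 lower and a median of −0.17. Most of each sum came from asp-1 (24437.1 exposed, 26961.5 control) and cpr-1 (15953.0 exposed, 17073.0 control). At 1.5-fold, 0 markers were higher and 3 lower (pept-1 at −0.90, pho-1 at −0.71 and elt-2 at −0.60). Over all genes compared, 4.69% and 9.58% passed 1.5-fold in those directions. Without the cross-reading probe sets 0 of 7 intestine markers read higher and the median was −0.25. It was −0.23 with the brightest probe set of each gene. The 5 yolk genes, which the intestine makes, summed to 53975 in exposed worms and 67765 in control worms. Of these, 1 read higher and 4 lower, with a median of −0.47. Only cross-reading probe sets read vit-4 and vit-5. Without such probe sets 3 yolk genes remained, 1 higher (vit-2 at 0.02) and 2 lower, with a median of −0.38. The 10 hypodermis and cuticle markers all read lower, with a median of −0.14, although 1 read higher under median centring and under quantile normalization and 2 with the brightest probe set. Sperm markers had a median of 0.12, with 12 higher and 1 lower, though only 3 remained without the cross-reading probe sets. Germline markers had a median of 0.05, neuron markers 0.12 and muscle markers −0.00098. The neuron median was −0.12 with the brightest probe set, and the muscle median was 0.06 under median centring and −0.23 without the cross-reading probe sets, so neither has a settled direction. The part of these tissue differences in the values of sod-1 and ctl-2 was not tested.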

How the data were processed

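Biotin-labelled cRNA from Trizol-extracted RNA was hybridised to an Affymetrix array, per the labels' protocols. The authors deposited a linear intensity for each probe set and array, made with Transcriptome Analysis Console per the submitters' processing notes; the sources used here give no version, summary algorithm or scaling method. Both arrays look scaled to 1 level, with 2%-trimmed means of 495 each. Of 22548 probe sets, the platform annotation names 1 gene for 20766, several for 887, and 895 are unnamed here; 99.7% of the first were matched to RefSeq (WBcel235) by gene number, with 0 differing symbols.

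The values were analysed as log2(intensity + 16), where low signals give too small a fold, and averaged over a gene's probe sets. A gene was compared if, on the array where it was brighter, it was at or above the 25th percentile of probe sets, which 13606 of 17118 genes and all 6 measured members did. With 1 array per group there was no test and no p-value or standard error. Related lists were peroxide enzymes, peroxisome genes, superoxide sources and electron carriers, copper handling, regulators and other DAF-16 targets; marker lists were intestine, hypodermis and cuticle, muscle, neurons, germline, sperm and yolk. All members are named, and the 2 largest differences of each related list. Members and lists were chosen with earlier results of these data known. The fold calculation was run on simulated data with 1 probe set per gene, no brightness filter and no rescaling. That run did not test probe set averaging, the filter or the scalings. Alternatives were median centring, loess (span 30%), quantile normalization, other brightness filters, the brightest probe set, leaving out shared probe sets, pseudocounts of 1 and 64, and thresholds of 1.5-fold and 3-fold. No coordinates are given because the array names no build. Software was matplotlib 3.10.9, statsmodels 0.14.6, scipy 1.17.1, pandas 2.3.3 and numpy 2.4.6 under Python 3.11.15.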

Additional observations from a re-analysis of the deposited data

Results flagged for a closer look

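The probe set that names ctl-1 and ctl-3 together, left out of the comparison because it names 2 genes, carried signal above its control level. Its intensity was 2459.3 in exposed worms and 2091.3 in control worms, a log2 difference of 0.23. The value belongs to neither gene alone, and there was no replicate to test it.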

How the results depend on the processing

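No paired analysis was possible because there is a single array of exposed and a single array of control worms. The members' differences gave 51 values under 9 alternatives. Of these, 50 kept their sign and moved by less than the technical spread of probe sets of like brightness. The exception was sod-2, at 0.026 with each array centred on its median. Each measured member had 1 probe set, so brightness filters and the choice of probe sets could only keep or drop its value. Only the scalings and pseudocounts could move it. For sod-5 that spread was 0.51, so a move from 0.07 to 0.22 also fell below it. The median of the members was −0.030 once genes dimmer than the array median were left out, as sod-5 is. Without shared probe sets, sod-1 and ctl-2 have no value. No member passed 2-fold under any of these alternatives, 1.5-fold or 3-fold. Genes at least 2-fold higher and lower, 226 and 418 as reported, numbered 289 and 304 after loess, 291 and 309 after quantile normalization, 253 and 361 with median centring, 25 and 54 under that stricter brightness filter, 423 and 803 with a pseudocount of 1, and 12 and 24 with a pseudocount of 64; past 1.5-fold there were 638 and 1303, and past 3-fold 23 and 76. Low signal limits sod-5 most.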
